A study of Mus musculus with 4 samples.

Results

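Fc gamma receptors bind the constant part of IgG antibodies and let a macrophage take up or answer to whatever the antibodies coat. The 7 genes described here are the 4 mouse receptors Fcgr1, Fcgr2b, Fcgr3 and Fcgr4, the adaptor chains Fcer1g and Tyrobp, and the kinase Syk. They were chosen by name and found through the RefSeq transcript that the array annotation gives for each probe: 9 probes of 32994 with a gene symbol, and 7 genes of 22911. Each gene had 1 probe except Fcgr2b (A_51_P130095 and the dimmer A_52_P545613) and Syk (A_55_P1962946 and the dimmer A_66_P138936). The single probes were A_51_P296764 for Fcgr1, A_52_P408757 for Fcgr3, A_51_P181517 for Fcgr4, A_51_P405476 for Fcer1g and A_51_P261517 for Tyrobp. All 9 probes were well above background on all 4 arrays by the scanner software's own mark.

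Fcgr1 is the high-affinity receptor, while Fcgr3 and Fcgr4 bind IgG in immune complexes. These receptors do not signal alone. They pair with the FcR gamma chain, the product of Fcer1g, whose cytoplasmic ITAM motif is phosphorylated by Src family kinases and then recruits Syk. Tyrobp encodes DAP12, an adaptor of the same kind that serves other receptors, among them Trem2. Fcgr2b carries an inhibitory motif instead, recruits the lipid phosphatase SHIP1 (gene Inpp5d) and restrains the activating receptors, so the balance between Fcgr2b and the others is taken to set how strongly a macrophage responds to antibody-coated targets.

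The cells were RAW264.7, an established mouse macrophage-like line, measured on 1-colour Agilent arrays 2 days after siRNA transfection. There were 4 groups of 1 array each: control siRNA with DMSO, control siRNA with LPS (lipopolysaccharide, sensed by Toll-like receptor 4), a pool of siRNAs against Ruvbl2 with DMSO, and the same pool with LPS. The control siRNA was non-targeting, and every group was thus transfected. The series asks what RUVBL2, an ATPase of chromatin remodelling and chaperone complexes, does for LPS-induced inflammatory genes. The labels name electroporation or a lipid reagent without saying which served here, and how much LPS was added, and for how long, is not stated in the sources used here.

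No group has a replicate, so no difference could be tested, and precision is limited by having 1 array for each group. The level of a gene is its processed signal on the log2 scale relative to the 75th percentile of that array, so that 0 is the percentile itself. Levels of different genes come from different probes and are not set against each other. Calls were made by size, from 1 on the log2 scale (2-fold) upward in either direction. Beside many of the differences, though not all, stands the technical SD. It was taken from probes printed 10 times on each array, and covers the spot alone and not labelling or culture. It was 0.06 for levels above 3 but 0.62 below -4. The pairs of probe and array behind it numbered 1071 above 3, 18 from -2 to 3, 23 from -4 to -2 and 88 below -4. The technical SD from -2 to 3, where most receptor levels lie, thus rests on few pairs. The signal at the 75th percentile ranged from 331 to 456, between 54.1% and 55.0% of spots were well above background with saturation at none. The control siRNA arrays occupied row 1 of the slide and the Ruvbl2 siRNA arrays row 2, hence the siRNA and the slide row cannot be told apart. The brighter Ruvbl2 probe stood at 79.2% of control in DMSO and at 75.7% in LPS, and the dimmer one at 68.5% and 92.2%. Neither probe reached 2-fold in either treatment, and the dimmer one in LPS (-0.12 on the log2 scale) was within its technical SD of 0.27. Of 10 macrophage markers 9 were well above background on all 4 arrays, among them Csf1r and Cd68. Mertk was not on any.

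The receptor genes sit close together in the genome. In the RefSeq annotation of GRCm38.p6, Fcgr2b, Fcgr4 and Fcgr3 are neighbours on chromosome 1 with 0 protein-coding genes between them, and Fcer1g follows on the same chromosome after 7 more genes. Fcgr1 lies on chromosome 3, Tyrobp on chromosome 7 and Syk on chromosome 13. The 250 bases before the annotated start are printed from RefSeq, 5′ to 3′ on the strand of the gene, for the 4 receptors, which were all called higher with LPS after control siRNA, and for Fcer1g, which was not called. The windows are chr3:96293970-96294219 for Fcgr1 (minus strand), chr1:170976072-170976321 for Fcgr2b (minus), chr1:171059395-171059644 for Fcgr3 (minus, the more downstream of its 2 annotated starts), chr1:171018676-171018925 for Fcgr4 (plus) and chr1:171234350-171234599 for Fcer1g (minus). Capitals mark matches to 4 motifs.
Fcgr1: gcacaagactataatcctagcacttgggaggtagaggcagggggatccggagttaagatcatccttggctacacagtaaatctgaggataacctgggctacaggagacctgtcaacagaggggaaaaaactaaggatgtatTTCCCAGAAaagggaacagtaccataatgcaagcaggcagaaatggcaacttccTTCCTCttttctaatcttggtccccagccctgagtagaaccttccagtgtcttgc
Fcgr2b: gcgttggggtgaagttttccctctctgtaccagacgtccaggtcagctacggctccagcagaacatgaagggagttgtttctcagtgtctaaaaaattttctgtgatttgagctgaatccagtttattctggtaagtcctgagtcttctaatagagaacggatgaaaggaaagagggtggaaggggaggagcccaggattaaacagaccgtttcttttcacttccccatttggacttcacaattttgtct
Fcgr3: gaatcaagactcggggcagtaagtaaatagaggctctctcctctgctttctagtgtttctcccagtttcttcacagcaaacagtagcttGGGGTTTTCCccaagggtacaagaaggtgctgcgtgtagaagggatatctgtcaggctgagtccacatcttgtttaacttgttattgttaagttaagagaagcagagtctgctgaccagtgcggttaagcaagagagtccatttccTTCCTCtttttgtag
Fcgr4: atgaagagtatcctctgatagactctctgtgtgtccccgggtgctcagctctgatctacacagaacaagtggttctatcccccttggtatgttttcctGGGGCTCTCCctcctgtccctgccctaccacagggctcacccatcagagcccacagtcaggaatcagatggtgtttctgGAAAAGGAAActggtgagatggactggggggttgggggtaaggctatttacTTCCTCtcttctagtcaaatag
Fcer1g: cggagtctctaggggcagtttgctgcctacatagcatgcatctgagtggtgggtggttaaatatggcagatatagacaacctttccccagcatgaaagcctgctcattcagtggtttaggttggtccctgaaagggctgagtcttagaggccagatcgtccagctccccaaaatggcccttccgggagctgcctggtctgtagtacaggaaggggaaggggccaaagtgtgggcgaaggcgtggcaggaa

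The motifs were searched on both strands, and no match in these windows overlapped another. TTCNNNGAA is the GAS element of interferon-responsive promoters, and 7.04% of 32536 promoter windows of this length hold it. Fcgr1 alone of the 5 had one, TTCCCAGAA, beginning 109 bases before the start. The core of the interferon-stimulated response element, GAAA, any pair of bases and GAAA again, is in 2.98% of windows and was found in Fcgr4. The NF-kB consensus, in 3.92% of windows, matched once in Fcgr3 and once in Fcgr4. GAGGAA, part of the box bound by the myeloid factor PU.1, is in 23.4% of windows and was found in Fcgr1, Fcgr3 and Fcgr4, each time on the opposite strand. The windows of Fcgr2b and Fcer1g held none of the 4. These matches describe letters in the windows and were not tied to binding.

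LPS with control siRNA went with higher levels of all 4 receptors and with differences within 2-fold for the 3 signalling genes. Of the 7 genes, 4 were called higher and 0 lower, where 5.74% of 13512 genes compared were called higher and 2.21% lower, 7.95% in all. The median difference was 1.51 for the 7 genes and 0.00 for all genes compared. In these cultures fewer cells of a type and less RNA per cell cannot be told apart.

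Fcgr1, the high-affinity receptor, had a level of 2.73 with DMSO and 4.74 with LPS on the control siRNA arrays, and of 2.14 and 4.25 on the Ruvbl2 siRNA arrays. Both LPS arrays stood above both DMSO arrays, and within each treatment the Ruvbl2 siRNA array was the lower one. The LPS difference with control siRNA was 2.01 (technical SD 0.10), or 4.03-fold.

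Fcgr2b, the inhibitory receptor, had control siRNA levels of -1.08 with DMSO and 1.82 with LPS, and Ruvbl2 siRNA levels of -0.31 and 0.83. The control siRNA arrays held both the lowest and the highest value, with the Ruvbl2 siRNA arrays between them. The LPS difference with control siRNA was 2.90 (technical SD 0.13), or 7.49-fold, and 94 genes, itself included, were higher by as much or more. The second Fcgr2b probe, which the annotation ties to another transcript of the gene, kept the same order of arrays at a dimmer signal: -3.41 and -0.65 with control siRNA, and -2.91 and -1.54 with Ruvbl2 siRNA. Its LPS difference with control siRNA was 2.76 (technical SD 0.21).

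Fcgr4, an activating receptor of monocytes and macrophages, was dim in resting cells. Its levels were -2.53 with DMSO and 0.30 with LPS after control siRNA, and -1.98 and -0.76 after Ruvbl2 siRNA. The 4 arrays stood in the same order as for Fcgr2b. The control siRNA difference was 2.83 (technical SD 0.21), or 7.09-fold, and 4.32-fold after normexp background correction and quantile normalization. Before scaling, its processed signal was 79.0 and 486 with control siRNA and 84.0 and 240.1 with Ruvbl2 siRNA. On the control siRNA DMSO array its level lay 2.62 above the dimmest probe that still passed the background mark there.

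Fcgr3, the third activating receptor, moved least of the 4. Its levels were -0.91 with DMSO and 0.60 with LPS after control siRNA, and -0.69 and 0.25 after Ruvbl2 siRNA, again with the control siRNA arrays outermost. The difference with control siRNA was 1.51 (technical SD 0.13), or 2.85-fold. Fcgr2b and Fcgr3 encode closely similar IgG-binding domains, and whether a probe of one also reads the other was not tested. The Fcgr3 probe gave a smaller LPS difference than either Fcgr2b probe.

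**Figure D1:**
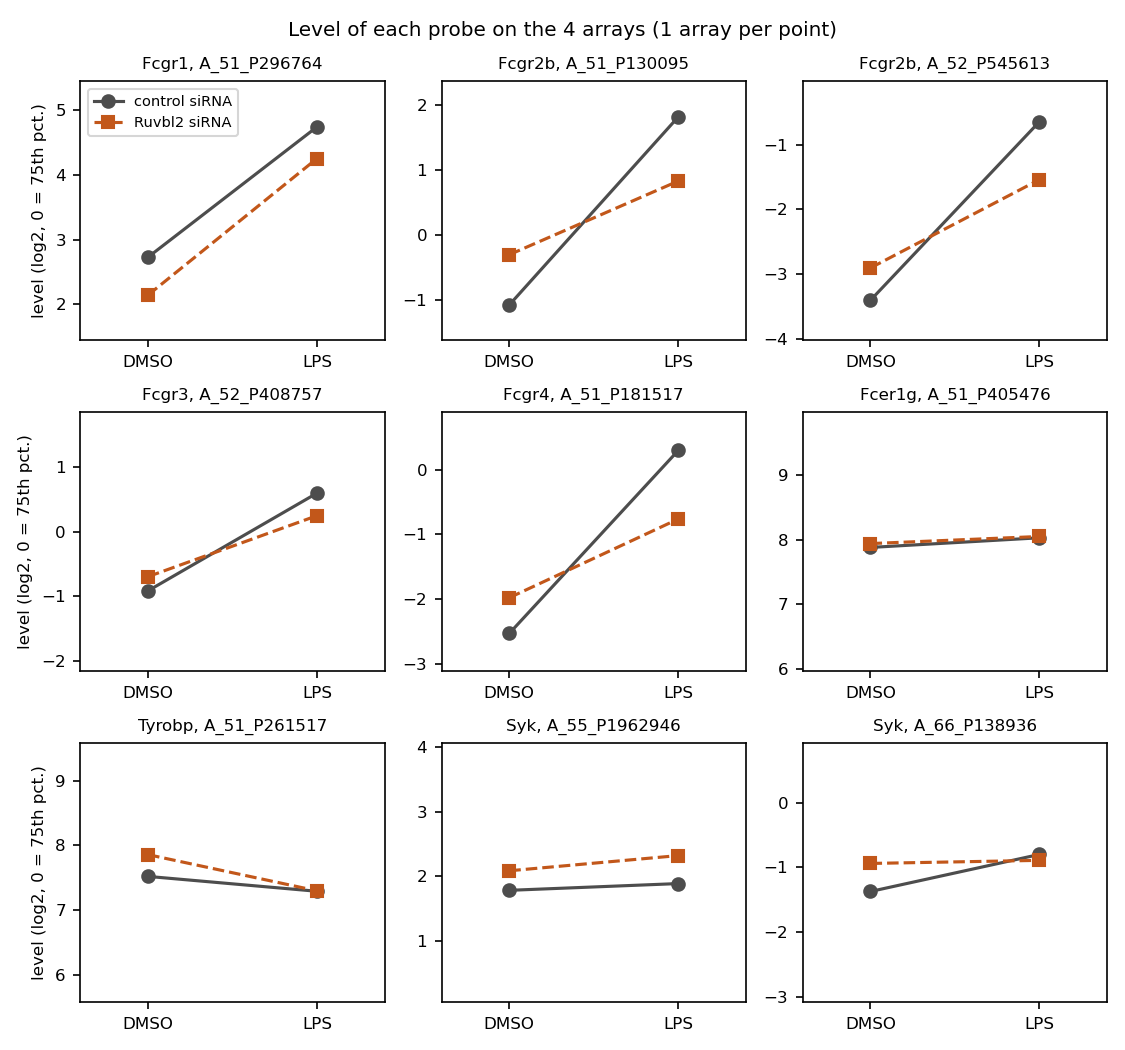
Level of each of the 9 probes on the 4 arrays (log2 processed signal relative to the array's 75th percentile, DMSO and LPS on the x axis, 1 array per point, every panel spanning the same range of levels). The lines cross between DMSO and LPS for Fcgr2b, Fcgr3, Fcgr4 and the dimmer Syk probe, run side by side for Fcgr1 and are nearly flat for Fcer1g.

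Fcer1g, the gamma chain that the activating receptors need, was bright and nearly constant. Its levels were 7.88 and 8.03 with control siRNA and 7.94 and 8.05 with Ruvbl2 siRNA, a span of 0.17 over the 4 arrays. The LPS difference was 0.15 with control siRNA (technical SD 0.06) and 0.11 with Ruvbl2 siRNA.

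Tyrobp, the DAP12 adaptor, had levels of 7.52 with DMSO and 7.29 with LPS after control siRNA, and of 7.86 and 7.30 after Ruvbl2 siRNA. The Ruvbl2 siRNA DMSO array was the highest, and the LPS arrays were the lower pair and close together. Its LPS difference was -0.23 with control siRNA and -0.56 with Ruvbl2 siRNA (technical SD 0.06 for each), neither past 2-fold.

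Syk, the kinase that docks on phosphorylated ITAMs, was read by 2 probes that did not move alike. The brighter one had levels of 1.78 and 1.89 with control siRNA and of 2.09 and 2.32 with Ruvbl2 siRNA, so both Ruvbl2 siRNA arrays were above both control arrays. The dimmer one had -1.37 and -0.80 with control siRNA and -0.94 and -0.89 with Ruvbl2 siRNA, with the control siRNA DMSO array lowest. The LPS difference with control siRNA was 0.10 by the first and 0.57 by the second (technical SD 0.13 for each).

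With Ruvbl2 siRNA, LPS again went with higher receptor levels, but by less for 3 of the 4. Fcgr1 was higher by 2.11 (4.31-fold), Fcgr4 by 1.22 (2.32-fold) and Fcgr2b by 1.14 (2.20-fold), with technical SDs of 0.10, 0.13 and 0.13. Fcgr3 was higher by 0.94 (1.92-fold, technical SD 0.13), just short of the call. Thus 3 of 7 genes were called higher and 0 lower, where 4.14% of all genes compared were called higher and 2.07% lower, 6.21% in all. After normexp correction and quantile normalization Fcgr1 alone was called, since Fcgr2b came to 0.96 and Fcgr4 to 0.88.

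**Figure D2:**
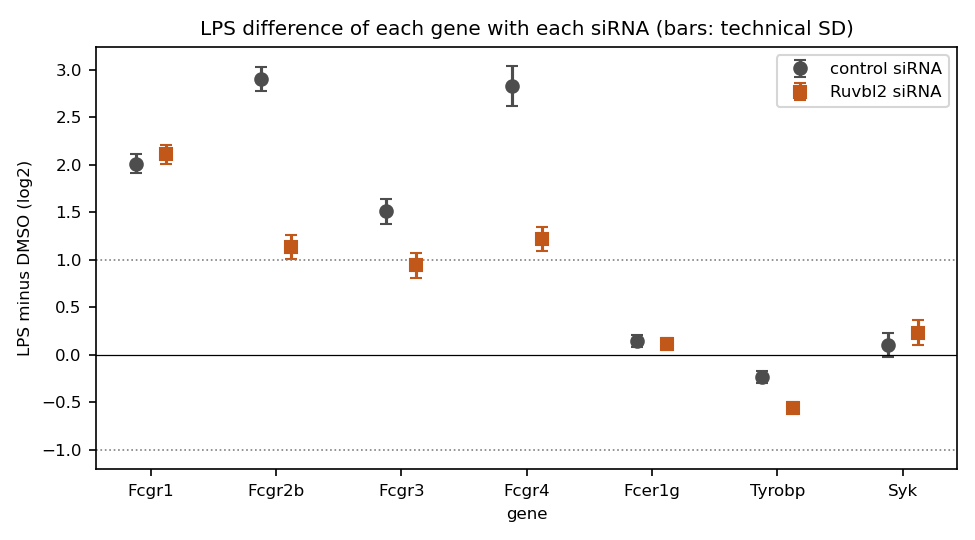
LPS minus DMSO on the log2 scale for each gene (brightest probe), with control siRNA in grey circles and Ruvbl2 siRNA in orange squares. Error bars are the technical SD of the difference, dotted lines mark 2-fold, and there is 1 array per group. Fcgr2b, Fcgr4 and Fcgr3 sit lower with Ruvbl2 siRNA, Fcgr1 is at 2.01 and 2.11, and Fcer1g, Tyrobp and Syk lie inside the dotted lines.

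The difference between the LPS responses, Ruvbl2 siRNA minus control siRNA, was well below 0 for Fcgr2b and Fcgr4. It was -1.77 for Fcgr2b (technical SD 0.18), so that the fold with LPS was 3.40 times smaller, and -1.39 by its second probe (0.30). Among 12471 genes well above background on all 4 arrays, 13 were as low or lower, the brighter Fcgr2b probe among them. For Fcgr4 it was -1.61 (technical SD 0.25), apart from Fcgr2b by less than either technical SD, with 29 genes as low or lower, itself included. Fcgr3 was at -0.57 (0.18), not called. Fcgr1 was at 0.10 (0.14), less than its technical SD. Of the 7 genes, 2 were called lower and 0 higher, where 1.18% of all genes were called lower and 0.513% higher, 1.69% in all. The median was -1.09 for the 4 receptors and -0.03 for all genes compared.

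The signalling genes differed little in this comparison: -0.04 for Fcer1g (technical SD 0.09), -0.33 for Tyrobp (0.09) and 0.13 for the brighter Syk probe (0.18), while the dimmer Syk probe gave -0.52 (0.18). Scaling on the E1A spike-ins, control transcripts that enter with the labelling reaction, moved the median of all genes in this comparison by 0.30. Fcgr2b was then at -1.47 and Fcgr4 at -1.31, both still called, Fcgr3 at -0.27 and Fcer1g at 0.26.

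**Figure D3:**
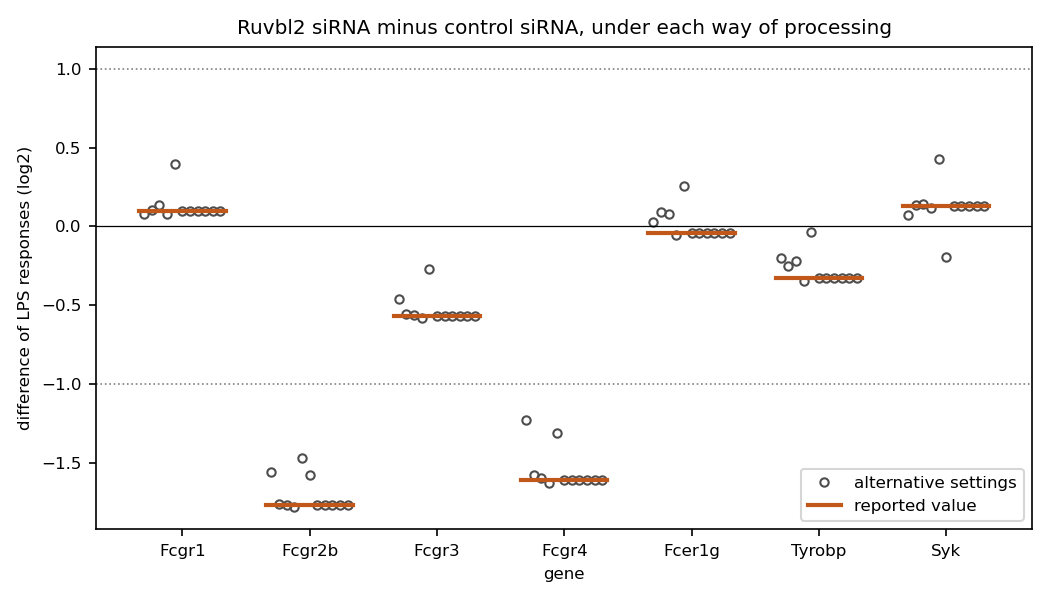
Difference of the LPS responses (Ruvbl2 siRNA minus control siRNA, log2) for each gene as reported (orange line) and under 11 other ways of processing (open circles). Some of the 11 could not change these values, among them the value table and the 1.5-fold rule. Fcgr2b and Fcgr4 stay below the dotted line at -1 under each of them, the other 5 genes stay inside the dotted lines, and Fcer1g and Syk lie on both sides of 0.

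In DMSO, Ruvbl2 siRNA against control siRNA gave 0 calls among the 7 genes, where 1.01% of all genes were called higher and 0.537% lower, 1.55% in all. Fcgr2b was higher by 0.78 (technical SD 0.13, 1.71-fold) and by 0.50 with its second probe (0.27), and Fcgr4 by 0.55 (0.21). Fcgr1 went the other way, at -0.59 (technical SD 0.13), or 66.6% of control. Fcgr3 differed by 0.22 (0.13), Fcer1g by 0.06 (0.06), Tyrobp by 0.34 (0.06) and Syk by 0.30 (0.13). Spike-in scaling, which moved the median of all genes by -0.30 here, put Fcgr3 at -0.08, Fcer1g at -0.24, Syk at 0.00 and Tyrobp at 0.03, while Fcgr2b (0.47) and Fcgr4 (0.25) kept their sign.

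Under LPS the same receptors were lower with Ruvbl2 siRNA. Fcgr4 was at -1.06 (technical SD 0.13), or 48.0% of control, and was the only one called, where 1.46% of genes were called lower and 1.06% higher, 2.52% in all. It was under 2-fold after normexp correction and quantile normalization (-0.90). Fcgr2b was at -0.99 (technical SD 0.13), or 50.3% of control, and at -0.89 by its second probe. Fcgr1 was at -0.49 (0.06), or 71.3% of control, and Fcgr3 at -0.35 (0.13), or 78.5%. Fcer1g (0.02) and Tyrobp (0.01) were within their technical SD of 0.06. Syk was higher by 0.43 with its brighter probe (technical SD 0.13) and lower by the dimmer one (-0.09). The comparisons share arrays, so the value in DMSO, the value in LPS and the difference of LPS responses are not independent of each other.

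The order of the 4 arrays set the receptors apart from one another. Fcgr1 ran highest on the control siRNA LPS array and lowest on the Ruvbl2 siRNA DMSO array. Fcgr2b, Fcgr3 and Fcgr4 ran highest on the same LPS array but lowest on the control siRNA DMSO array. For Fcgr3 the DMSO arrays were apart by 0.22 and the LPS arrays by 0.35, against a technical SD of 0.13, so the order within the DMSO pair is the least certain, and it turns with spike-in scaling.

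Genes with the most similar pattern were sought among 11693 others well above background on all 4 arrays, leaving out clone, Gm and LOC symbols, by the root mean square difference of levels centred on each gene's own mean. Only 4 arrays enter, so this describes shape and no more. For Fcgr2b the closest gene was its chromosomal neighbour Fcgr4, at 0.08, followed by the membrane protein gene Emp2 (0.11) and Igfbp6, an insulin-like growth factor binding protein gene (0.12). For Fcgr4 the closest were Igfbp6 (0.04), Fcgr2b (0.08) and Cd274, the gene of PD-L1 (0.10). Igfbp6 had levels from -4.53 to -1.69, Emp2 from -4.02 to -1.39 and Cd274 from -3.74 to -1.05, where the technical SD is larger.

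The genes closest to Fcgr1 were others: Trim30a, a TRIM family gene (0.07), Mlkl, the executor of necroptosis (0.09), and Ifih1, the sensor of double-stranded RNA also called MDA5 (0.09). Ifih1 had LPS differences of 1.89 with each siRNA, and siRNA differences of -0.59 in DMSO and in LPS. The genes closest to Fcgr3 were Cfp, the gene of the complement protein properdin (0.04), Plet1 (0.05) and the acute phase gene Saa1 (0.05). Plet1 was dim, with levels from -4.44 to -2.80, where the technical SD is larger. Cfp was bright, with levels from 5.92 to 7.48, and its LPS difference was 1.56 with control siRNA and 1.03 with Ruvbl2 siRNA.

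Of 31 activating signalling genes downstream of the receptors compared with control siRNA, 2 were called higher with LPS and 0 lower, with a median of 0.03. In that comparison 5.74% of all genes were called higher and 2.21% lower, which is the background for the other lists too. Gab2, a docking protein, was higher by 1.38 (technical SD 0.13), and by 0.50 with Ruvbl2 siRNA. Src was well above background on the LPS arrays alone, and was at least 4.20-fold higher with control siRNA and at least 6.38-fold with Ruvbl2 siRNA. Neither call held under every alternative: the first was 1.65-fold after normexp correction and quantile normalization, the second 1.98-fold with the mean of the gene's probes, and neither was compared with the brighter filter. No gene of this list was called between the siRNAs in either treatment, where 1.55% of all genes were called in DMSO and 2.52% in LPS.

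Among 27 inhibitory signalling genes compared, 3 were called higher and 2 lower with LPS after control siRNA, against 5.74% and 2.21% of all genes, with a median of 0.00. Pilra, an inhibitory receptor, was higher by 2.95 with control siRNA (2.14 after normexp correction and quantile normalization) and by 2.74 with Ruvbl2 siRNA. Lilrb4a, an inhibitory immunoglobulin-like receptor, had levels of 5.50 and 7.32 with control siRNA and of 5.90 and 6.81 with Ruvbl2 siRNA, the array order of Fcgr2b. Its LPS difference was 1.83 and 0.92 in turn (technical SD 0.06 for each). Cd300lf was higher by 1.22 and 1.85 in turn, and by 0.88 and 1.15 after normexp correction and quantile normalization. Cd300a was lower by LPS with both siRNAs (-1.72 and -1.84), as was Cd72, at -1.27 with control siRNA and at -0.71, not called, with Ruvbl2 siRNA. Inpp5d, the SHIP1 gene that Fcgr2b works through, differed by -0.37 and -0.39.

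Other receptors that pair with Fcer1g or Tyrobp, or signal to Syk, held the largest LPS differences of the pathway. Of 24 compared with control siRNA, 6 were called higher and 0 lower, against 5.74% and 2.21% of all genes, with a median of 0.20. With Ruvbl2 siRNA 3 of 23 were called higher and 1 lower, against 4.14% and 2.07% of all genes. Clec4n, the gene of Dectin-2, which recognises fungal mannans and signals through the gamma chain, was 70.5-fold higher with control siRNA (32.2-fold after normexp correction and quantile normalization) and 33.1-fold with Ruvbl2 siRNA. It was also the only gene of the list called between the siRNAs in DMSO, where 1.55% of all genes were called. It was 2.82-fold higher there (technical SD 0.21 on the log2 scale), and under 2-fold after normexp correction and quantile normalization (0.85). Sirpb1b, a signal-regulatory protein gene, had levels of -0.44 and 2.26 with control siRNA and of 0.45 and 1.66 with Ruvbl2 siRNA. Its LPS difference was 2.70 and 1.21 in turn (technical SD 0.13 for each). Pilrb1, the activating partner of Pilra, was higher by 2.50 and 2.72, and by 1.52 and 1.90 after normexp correction and quantile normalization. Trem2, a DAP12-dependent lipid receptor, was lower by LPS, at -0.98 with control siRNA and at -1.16 with Ruvbl2 siRNA, which spike-in scaling put at -0.80.

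In the difference of LPS responses, Sirpb1b (-1.49, technical SD 0.18) and Clec4n (-1.09, 0.22) were the 2 of 22 receptors of that list called lower, and 0 were called higher. Clec4n was not called there after normexp correction and quantile normalization (-0.47) or with spike-in scaling (-0.80). Of the activating and inhibitory signalling lists 0 of 30 and 0 of 27 genes were called, and of the phagocytosis and oxidase list 0 of 30. In this comparison 1.18% of all genes were called lower and 0.513% higher, so 0 calls do not set these lists apart from all genes. The phagocytosis and oxidase list held Myo1f, a myosin gene, as its only LPS call, at -1.13 with control siRNA and at -1.56 with Ruvbl2 siRNA.

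**Figure D4:**
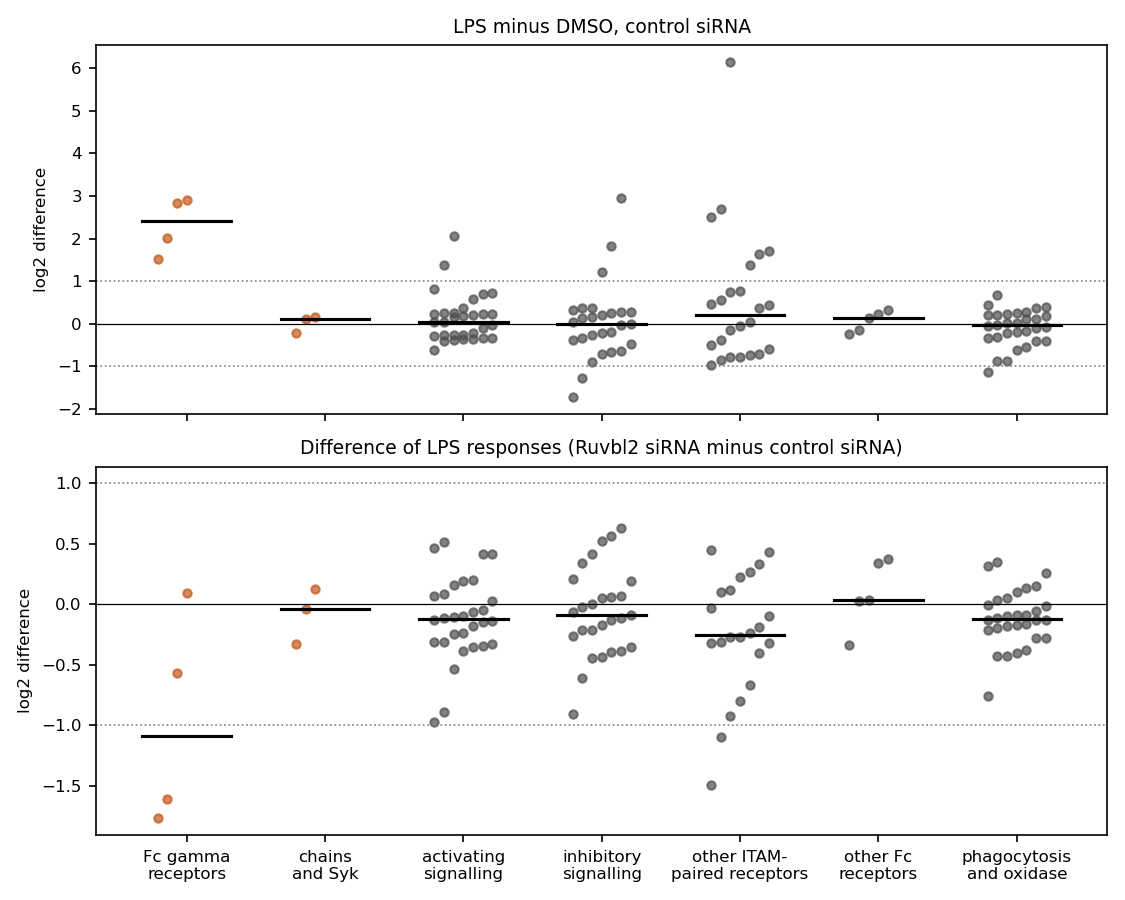
LPS minus DMSO with control siRNA (upper panel) and the difference of LPS responses, Ruvbl2 siRNA minus control siRNA (lower panel), on the log2 scale for every compared gene of the 4 receptors, the chains with Syk, and 5 pathway lists. Each point is a gene, black bars are medians and dotted lines mark 2-fold. The receptors have a median of 2.42 in the upper panel and of -1.09 in the lower, while the medians of the 5 lists lie between -0.04 and 0.20 and between -0.25 and 0.04.

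Of 13 other Fc receptor genes, 5 could be compared and 0 were called in any comparison. Between 1.55% and 7.95% of all genes were called in these comparisons, so 0 of 5 does not set this list apart from all genes. Fcgrt, the receptor that recycles IgG, was dim, with levels from -2.63 to -2.17, and Trim21, a cytosolic antibody receptor, ranged from -0.90 to -0.40. Fcer1a and Ms4a2, which form the IgE receptor together with the gamma chain, were not well above background on any array.

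Genes that mark other cell types were mostly dim. Of 7 mast cell or basophil markers 6 were not well above background on any array, and neither were 4 of 6 B cell and 4 of 5 NK cell markers. The summed level of the neutrophil markers, 2 of 6 of which were not well above background on any array (Ngp and S100a9), was -0.35 with DMSO and 0.93 with LPS after control siRNA, and 0.02 and 1.1 after Ruvbl2 siRNA. S100a8 was the neutrophil marker called, at least 42.1-fold higher with LPS after control siRNA and 7.75-fold after Ruvbl2 siRNA (8.08-fold and 4.94-fold after normexp correction and quantile normalization). It was also at least 6.65-fold higher with Ruvbl2 siRNA than with control siRNA in DMSO (2.01-fold with normexp). The 2 neutrophil markers well above background on all 4 arrays were Elane and Camp, neither of them called. With LPS, Elane was at -0.12 after control siRNA and at -0.33 after Ruvbl2 siRNA (technical SD 0.13 for each). Camp was at 0.08 and 0.62 in turn (technical SD 0.62 and 0.48). Of 7 T cell markers 4 passed the background mark on every array and 3 (Cd3g, Cd2 and Cd8a) on none, and the summed level ranged from 2.35 to 2.86. With LPS after control siRNA 1 of these 4 was above 0, Lck at 1.32, and 3 were below 0, Cd3d at -0.15, Cd3e at -0.05 and Cd4 at -0.20, with the same signs after Ruvbl2 siRNA. The part of these genes in the receptor differences was not tested.

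Among the macrophage markers themselves, some moved with the receptors. The summed level of the list stayed between 10.1 and 10.3. Of the 9 compared, 2 were called higher with LPS after control siRNA, where 5.74% of all genes were. They were Adgre1 (a surface receptor of mature macrophages) at 1.12 (0.97, not called, with the mean of its probes) and Cd14 (the LPS co-receptor) at 1.08. After Ruvbl2 siRNA 0 of the 9 were called, where 4.14% of all genes were called higher and 2.07% lower. Adgre1 and Cd14 were then at 0.19 and 0.88. In the difference of LPS responses the median of the 9 was -0.28 and 8 of 9 were below 0, with Adgre1 at -0.93. Calls there numbered 0, where 1.69% of all genes were called. Their part in the receptor differences was not tested.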

How the data were processed

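Total RNA of 4 RAW264.7 cultures, 1 per group, was hybridised to 1 array each. The deposited values are intensity values, background-subtracted and detrended within each array by Agilent Feature Extraction 11.5.1.1 per the file headers (11.0 per the submitters' processing notes), with no normalization between arrays. The deposited value table equalled them at all 62976 spots of each array. Spots of a probe were averaged as log2 values without population outliers, and a gene was read by its brightest probe on average. A gene above background on only the brighter of 2 arrays has a bound, "at least N-fold", taken against the dim array's own value or the lowest level well above background there, whichever was higher. Differences, calls and likeness were computed in Python 3.11.15. Differences and calls, but not likeness, were tested on simulated data, and alternatives used limma 3.58.1. Normexp used the spot medians.

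The array annotation is of build mm9, so RefSeq positions (GRCm38.p6) serve the promoters and the order of genes alone. Promoter windows were found for 6 of the 7 genes, Tyrobp being the exception. The members and lists were chosen with earlier results of these data known. Named genes were the 7 members, Ruvbl2, up to 3 measured calls and 1 bound per list, direction and comparison, and the 3 genes most like each receptor. Csf1r, Cd68, Mertk, Adgre1, Cd14, Lck, Cd3d, Cd3e, Cd4, Cd3g, Cd2, Cd8a, Lyn, Fgr, Inpp5d, Fcgrt, Trim21, Fcer1a, Ms4a2, Ngp, Elane, Camp, S100a8 and S100a9 were named outside that rule, after their values were seen. The alternatives were normexp with quantile normalization, quantile normalization, cyclic loess, centring on detected probes or on spike-ins, the mean of a gene's probes, the value table, outlier spots kept, a brighter filter, no filter and a 1.5-fold rule.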

Additional observations from a re-analysis of the deposited data

Results flagged for a closer look

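Several of the genes named in the text and measured on all 4 arrays had siRNA differences of opposite sign in DMSO and in LPS, each larger than its technical SD. With 1 array per group the differences between the 2 treatments could not be tested. Fcgr2b was at 0.78 in DMSO and -0.99 in LPS, a change of -1.77. Fcgr4 was at 0.55 and -1.06, a change of -1.61, and Fcgr3 at 0.22 and -0.35, a change of -0.57. Sirpb1b (0.89 and -0.60, a change of -1.49), Lilrb4a (0.40 and -0.51, -0.91), Gab2 (0.23 and -0.66, -0.89), Myo1f (0.23 and -0.20, -0.43), Adgre1 (0.39 and -0.54, -0.93) and Fgr (0.24 and -0.74, -0.97) had the same signs. Emp2 (0.65 and -0.72, -1.37), Cd274 (0.31 and -0.94, -1.25), Saa1 (0.34 and -0.36, -0.69) and Cfp (0.25 and -0.28, -0.53) did too, but these 4 were chosen for a pattern like that of a receptor. Cd72 (-0.07 and 0.49, 0.56) and Trim21 (-0.16 and 0.21, 0.37) had the opposite signs. Sirpb1b, Lilrb4a, Gab2, Myo1f and Cd72 were named for LPS calls that use the same arrays as these differences. Their signs are thus not independent of that choice. Adgre1, Fgr and Trim21 were named after their values were seen. With spike-in scaling Fcgr3, Gab2, Myo1f, Cfp and Fgr were below 0 in DMSO as well.

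The LPS difference had opposite signs with the 2 siRNAs for Fgr (0.23 with control siRNA and -0.75 with Ruvbl2 siRNA, a change of -0.97) and for Cd68 (0.12 and -0.17, a change of -0.29), each beyond its technical SD and likewise untested. With spike-in scaling Cd68 was above 0 with both.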

How the results depend on the processing

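Of 11 alternatives, each kept 4 receptors called higher with LPS after control siRNA and Fcgr2b and Fcgr4 called lower in the difference of LPS responses, where Fcgr2b ranged from -1.78 to -1.47 and Fcgr4 from -1.63 to -1.23. With Ruvbl2 siRNA, LPS gave 3 calls, 1 after normexp correction and quantile normalization, and 4 with scaling on spike-ins or the 1.5-fold rule. Between the siRNAs in LPS there was 1 call, 0 after normexp with quantile normalization, 2 with centring on detected probes and 2 with the 1.5-fold rule, and in DMSO 0 calls, or 2 with the 1.5-fold rule. The share of all genes called ranged from 4.44% to 20.0% for LPS with control siRNA, from 3.08% to 16.9% with Ruvbl2 siRNA, from 0.28% to 6.22% between the siRNAs in DMSO, from 0.70% to 9.10% in LPS and from 0.52% to 9.86% for the difference of LPS responses, the lowest each time with normexp. Upward calls made up, with scaling on spike-ins, 90.2% in place of 66.6% for LPS with Ruvbl2 siRNA, 24.6% in place of 65.4% for the siRNAs in DMSO and 78.8% in place of 30.3% for the difference of LPS responses. With normexp they made up 36.8% in DMSO and 25.5% (in place of 42.1%) in LPS. Called values of the genes chosen by the naming rule, and of Adgre1, Cd14, Lck and S100a8, kept their sign under every alternative that gave them. The cause of these changes was not tested. No paired analysis was possible because each group holds 1 array, and no array could be left out. Signal over background limits Fcgr4 and the dimmer Fcgr2b probe in DMSO most.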

Other observations

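Lyn and Fgr, kinases of the Src family that phosphorylates ITAMs, differed in their values. These 2 genes were chosen after their values were seen. Lyn had levels of 5.53 with DMSO and 6.24 with LPS after control siRNA, and of 5.49 and 6.10 after Ruvbl2 siRNA, LPS differences of 0.71 and 0.62 (technical SD 0.06 for each). Fgr had 0.14 and 0.36 with control siRNA and 0.37 and -0.37 with Ruvbl2 siRNA, LPS differences of 0.23 and -0.75 (technical SD 0.13 for each). The difference of LPS responses was -0.97 for Fgr and -0.09 for Lyn, neither past 2-fold. The sign for Lyn turned with spike-in scaling and with normexp and quantile normalization.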
